A study of Homo sapiens with 12 samples.

Results

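The vitamin D receptor and retinoid genes described here are VDR, RXRA, RARA, RARB, RARG, STRA6, CRABP2, DHRS3, CYP26B1 and CYP24A1, 10 of the 17958 genes measured. They were taken by name, and each was read from its probe set with a single gene symbol. Where a gene had several of these, the brightest on average would have been kept, but each of the 10 had only 1. They were selected on their pathway and with earlier results of these arrays in view, namely the c-Jun siRNA differences, in which VDR and DHRS3 were among the genes that stood out in the c-Jun siRNA vehicle arrays against the control siRNA vehicle arrays. The values of both genes in that comparison, and in the interaction that contains it, are therefore given as a description, without a test. Their tests for TNFα with either siRNA use the same vehicle arrays. Picking genes low in control siRNA vehicle arrays can favour a rise with TNFα under control siRNA. Picking genes high in c-Jun siRNA vehicle arrays can disfavour one under c-Jun siRNA. The p-values of both genes for TNFα are thus not free of the choice.

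BT549 is a triple-negative breast cancer cell line with mesenchymal features. All cells carried an siRNA for 72 hours, either a pool against c-Jun or a control, and then received the inflammatory cytokine tumour necrosis factor alpha (TNFα) or vehicle for 6 hours. The 4 groups of 3 arrays were thus c-Jun siRNA with TNFα, c-Jun siRNA with vehicle, control siRNA with TNFα and control siRNA with vehicle. JUN encodes c-Jun, one of the proteins that form AP-1 transcription factors, and the study asks how far the response to TNFα depends on it. One cell line was used and no untransfected cells were among these groups. No label states that the 3 arrays of a group came from separate cultures. The p-values thus cover only the spread between arrays, which may be technical.

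VDR is the nuclear receptor for the active hormone form of vitamin D, and the retinoic acid receptors alpha, beta and gamma (RARA, RARB and RARG) are those for retinoic acid, the active form of vitamin A. Each of them binds DNA together with a retinoid X receptor, such as RXRA, so the vitamin D and retinoid pathways draw on a shared partner. The supply of both ligands is set by enzymes: cells take up retinol, oxidise it through retinal to retinoic acid and clear the acid with CYP26 enzymes, while CYP27B1 makes and CYP24A1 breaks down active vitamin D. In breast epithelium both pathways are known for effects on growth and differentiation. Retinoic acid receptors are also known to interfere with AP-1 when they carry ligand.

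Expression values are log2 units per probe set, in which a difference of 1 is a doubling. Levels of different probe sets are compared only with array medians and in sums of marker genes, as a rough guide. JUN averaged 9.83 ± 0.021 in c-Jun siRNA vehicle arrays and 10.35 ± 0.0052 in control siRNA vehicle arrays (SD, n = 3 each), which left 69.5% of its control level. With TNFα it averaged 10.36 ± 0.032 in c-Jun siRNA arrays and 11.07 ± 0.041 in control siRNA arrays, which left 61.1%. The knockdown was therefore partial, and JUN in the c-Jun siRNA TNFα arrays was about as high as in the control siRNA vehicle arrays. Array medians lay between 5.62 and 5.68, and precision is limited by there being 3 arrays a group. Genes expected to be high in such a line were VIM, FN1, SPARC, CDH2, AXL and CD44, with group means of 9.71 to 12.84. The vimentin gene VIM had group means of 12.57 to 12.72. With c-Jun siRNA 2 of the 6 rose and 1 fell under TNFα, and 2 rose and 3 fell under vehicle. These are 50% and 83.3% of the list, where 28.5% and 28.9% of all genes changed. FN1 fell by 0.60 and 0.45 and AXL rose by 0.393 and 0.425, in that order. ESR1 and PGR, which encode the oestrogen and progesterone receptors, stayed below every array median with group means of 4.35 to 4.41 and 3.69 to 3.76. Of 7 genes expected to be low in such a line (ESR1, PGR, ERBB2, CDH1, EPCAM, KRT8 and KRT18), ERBB2, KRT8 and KRT18 nonetheless lay above the medians in every group mean, ERBB2 at 8.71 to 8.88. The epithelial genes KRT18 and CDH1 rose with c-Jun siRNA, by 0.72 and 0.95 log2 units with TNFα and by 0.77 and 0.55 with vehicle. These 2 of the 7 are 28.6% under each treatment, where 28.5% and 28.9% of all genes changed with c-Jun siRNA under TNFα and vehicle. CDH1 averaged 4.45 in control siRNA vehicle arrays, and with a floor at 5 its difference under vehicle was 0.041 and did not pass (adjusted p in limma 0.784). KRT8 and EPCAM differed by 0.08 and -0.32 with TNFα and by 0.02 and 0.02 with vehicle, and none of these passed. Summed on the linear scale, the 7 genes reached 1221 to 1369 in c-Jun siRNA vehicle arrays, against 967 to 1042 in control siRNA vehicle arrays. With TNFα the sums were 1048 to 1142 in c-Jun siRNA arrays, against 842 to 944 in control siRNA arrays. KRT18 and ERBB2 made up most of these sums. Of 5 endothelial genes, TEK rose with c-Jun siRNA, by 0.61 with TNFα and 0.93 with vehicle. That is 20% of the list under each treatment. Of 5 leukocyte genes ITGAM rose with TNFα, by 0.69 with c-Jun siRNA and 0.78 with control siRNA. CD14 fell with TNFα under control siRNA by 0.30 (adjusted p in limma 0.0254). Changed leukocyte genes were 20% of the list with c-Jun siRNA and 40% with control siRNA, where 29.6% and 35.7% of all genes changed. The leukocyte genes PTPRC, CD3E, CD14 and ITGAM lay below the medians. CD68, a lysosomal protein gene, averaged 9.52 to 9.63 and made up most of the list's sums of 799 to 893. The part of these genes in the results below was not tested, and in whole cultures fewer cells that express a gene and less RNA per cell cannot be told apart.

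Promoter sequences were taken from RefSeq (GRCh38.p14), each from 250 bases before to 50 bases after a transcription start. They were searched on both strands for motifs of the factors that the design and the pathway name. The table held 20 promoters of 8 of the 10 genes, with none for VDR and CYP24A1. The AP-1 motif TGANTCA, where N is any base, was in 7.71% of the 35116 promoters of the table, the NF-kB motif in 11.3% and the retinoic acid response element of spacing type DR5 in 0.0883%. The 3 promoters below are shown because each holds the only match among these genes to AP-1, to NF-kB, the main factor downstream of TNFα, or to DR5. Each of these motifs was thus in 1 of the 20 promoters. DHRS3 had 3 promoters in the table, RARA 3 and RARB 4, and the others of each gene held no match. Capitals mark the match, and a match is a description of the letters, not of binding. The matches do not overlap one another. The DHRS3 match starts at position -85 from the start of transcription in the promoter at chr1:12596564-12596863 (minus strand). The RARA match starts at -206, in the promoter at chr17:40317995-40318294 (plus strand). The RARB match starts at -53, in the promoter at chr3:25428013-25428312 (plus strand), and is the classical retinoic acid response element of that gene.
DHRS3: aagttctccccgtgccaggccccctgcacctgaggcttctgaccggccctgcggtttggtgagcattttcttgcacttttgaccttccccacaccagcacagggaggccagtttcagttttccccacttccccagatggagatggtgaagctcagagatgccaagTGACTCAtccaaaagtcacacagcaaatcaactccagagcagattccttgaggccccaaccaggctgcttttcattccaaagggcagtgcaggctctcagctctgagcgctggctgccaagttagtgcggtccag
RARA: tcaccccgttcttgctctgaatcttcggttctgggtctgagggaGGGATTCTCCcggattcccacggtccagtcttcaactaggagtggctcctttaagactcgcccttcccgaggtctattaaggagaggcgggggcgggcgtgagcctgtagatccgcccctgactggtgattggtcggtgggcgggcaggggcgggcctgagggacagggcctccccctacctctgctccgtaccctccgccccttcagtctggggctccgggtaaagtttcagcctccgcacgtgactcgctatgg
RARB: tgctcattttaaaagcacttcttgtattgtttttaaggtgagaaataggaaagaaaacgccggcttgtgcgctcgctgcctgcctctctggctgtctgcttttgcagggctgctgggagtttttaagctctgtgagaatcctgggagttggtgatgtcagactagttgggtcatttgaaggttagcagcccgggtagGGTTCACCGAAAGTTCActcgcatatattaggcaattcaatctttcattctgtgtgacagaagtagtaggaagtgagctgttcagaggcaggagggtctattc
Neither the AP-1-related ATF/CRE motif TGACGTCA, present in 1.85% of all promoters, nor the vitamin D type DR3 motif, in 0.251%, was in any of the 20.

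VDR and DHRS3 differed mainly between the siRNAs, and both were far higher with c-Jun siRNA. RXRA, RARA, RARG, CRABP2 and STRA6 fell with TNFα under both siRNAs, and all but RXRA also fell with c-Jun siRNA under both treatments. CYP24A1 rose with TNFα from a low level. RARB and CYP26B1 were low and passed no test. The 4 group means spanned 3.36 log2 units for DHRS3, 2.71 for VDR, 1.16 for RARA, 1.09 for RXRA and 0.94 for RARG, but only 0.18 for RARB and 0.17 for CYP26B1.

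**Figure D1:**
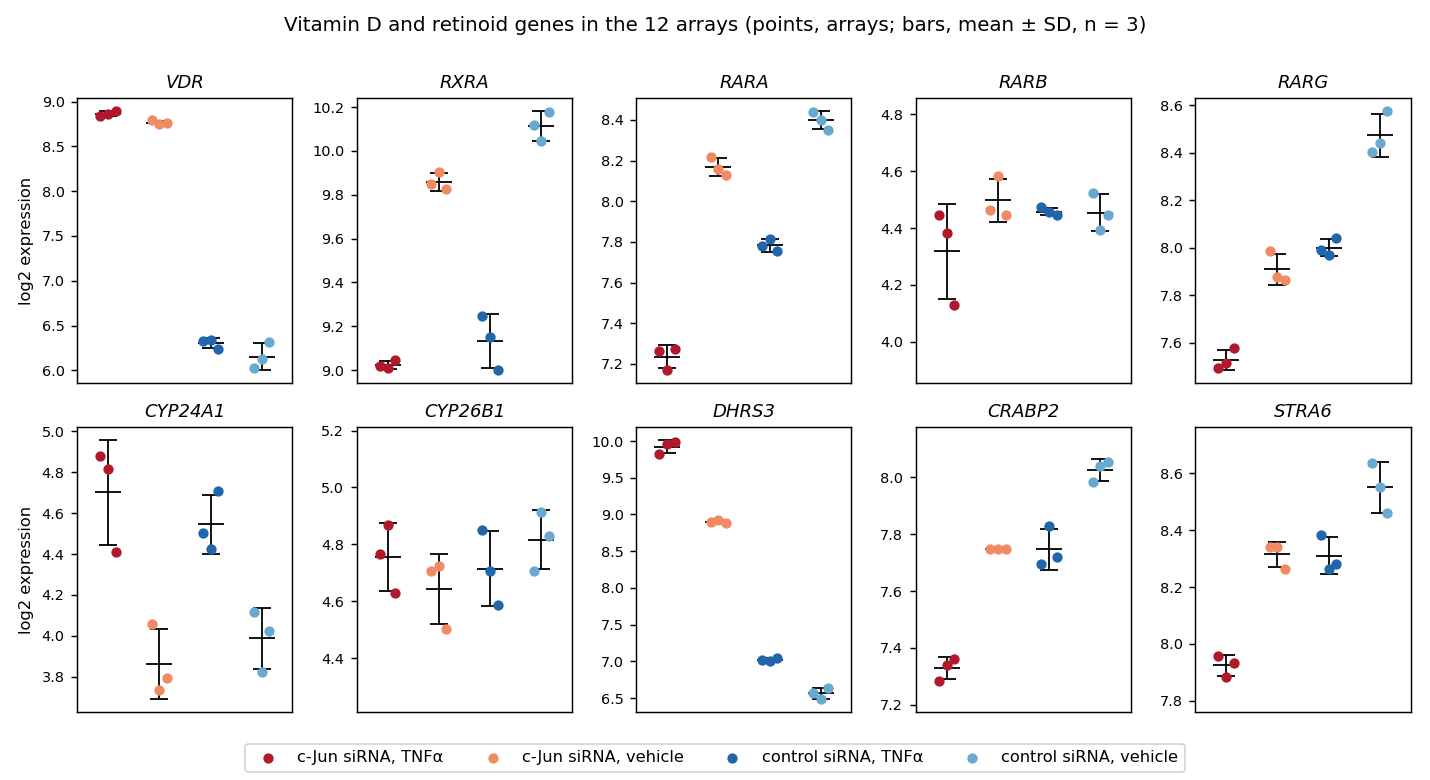
Log2 expression of the 10 vitamin D and retinoid genes, 1 panel a gene with its own vertical axis in log2 units. Points are the 12 arrays by group and bars are group means with SDs over 3 arrays. VDR and DHRS3 separate by siRNA, RXRA and CYP24A1 by treatment, and the 4 groups of RARA stand apart from one another.

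Tests were made with limma across all 17958 genes, with Benjamini-Hochberg adjustment over all of them, and an adjusted p under 0.05 counts as changed. Errors of differences are standard errors (SE) of that fit, and errors of means are SDs over 3 arrays. With TNFα under c-Jun siRNA, 7 of the 10 genes changed, 2 higher and 5 lower, where 29.6% of all genes changed, 11.3% higher and 18.3% lower. Their median difference was -0.28 log2 units, against -0.016 over all genes, and their median absolute difference 0.40, against 0.091. With TNFα under control siRNA the counts were again 2 higher and 5 lower of 10, where 35.7% of all genes changed, 13.8% higher and 21.9% lower. The median difference was -0.17, against -0.023 over all genes, and the median absolute difference 0.37, against 0.10. DHRS3, picked on the vehicle arrays, was among the higher genes in both counts.

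For c-Jun siRNA with vehicle, 28.9% of all genes passed the threshold, 14.4% higher and 14.5% lower. Centring every array on its median moves the lower share of those calls to 38.8%, against 50.2% as deposited, and shifts the median of all genes by at most 0.034. Of the 8 genes tested here in that comparison, 5 fell and none rose, and VDR and DHRS3 were the 2 that stood higher. Over all 10 the median difference was -0.20, against -0.0073 over all genes, and the median absolute difference 0.24, against 0.089. Both medians of the 10 include VDR and DHRS3, whose values here were known beforehand, so they are a description only. For c-Jun siRNA with TNFα, 6 of the 10 changed, 2 higher and 4 lower, where 28.5% of all genes changed, 14.1% higher and 14.4% lower. The median difference was -0.12, against 0.0011, and the median absolute difference 0.40, against 0.089. The 2 higher genes were VDR and DHRS3. This comparison uses other arrays, but both genes were picked for their difference with the same siRNA under vehicle. The count and the medians are thus not free of that choice. The 2 TNFα comparisons share no arrays, but each of them shares a group with both c-Jun siRNA comparisons.

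**Figure D2:**
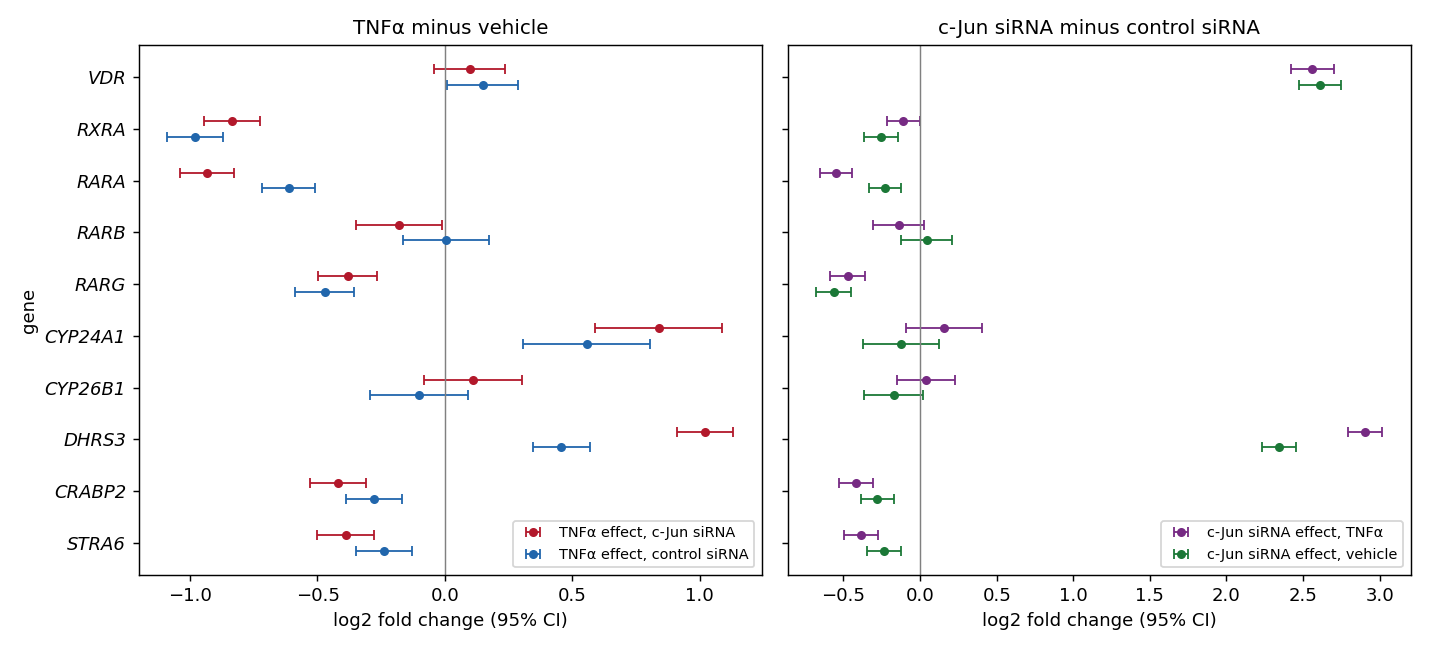
Difference in log2 expression of each of the 10 genes with its 95% confidence interval from the limma fit, left for TNFα minus vehicle under either siRNA, right for c-Jun siRNA minus control siRNA under either treatment. On the left RXRA lies lowest at -0.98 with control siRNA. On the right VDR and DHRS3 lie above 2 log2 units, and RARA and RARG lie below 0.

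Among the receptors, VDR (probe set 7962689) stood 2.61 log2 units higher with c-Jun siRNA under vehicle. It measured 8.79, 8.75 and 8.76 in c-Jun siRNA vehicle arrays, against 6.02, 6.12 and 6.32 in control siRNA vehicle arrays. With TNFα it measured 8.84, 8.86 and 8.89 in c-Jun siRNA arrays, against 6.33, 6.34 and 6.24 in control siRNA arrays. All 6 c-Jun siRNA arrays thus lay more than 2 log2 units above all 6 control siRNA arrays. The difference under vehicle was 2.61 ± 0.066 (SE), 6.11-fold, which is a description only. Under TNFα VDR rose by 2.56 ± 0.066, 5.90-fold, with an adjusted p of 7.10e-15 in limma. TNFα itself moved VDR little. The difference was 0.10 ± 0.066 with c-Jun siRNA (adjusted p in limma 0.322), although the TNFα and vehicle arrays did not overlap. With control siRNA it was 0.15 ± 0.066 and did not pass either (adjusted p in limma 0.093), and the groups overlapped. The intervals of these effects, -0.04 to 0.24 and 0.01 to 0.29, lay far below the size of the siRNA difference. Without the third control siRNA vehicle array, VDR passed the test for TNFα with control siRNA at 0.23 (adjusted p in limma 0.00571).

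RXRA (8159127), the shared heterodimer partner, was the gene of this set with the largest fall under TNFα and control siRNA. It measured 9.02, 9.01 and 9.04 in c-Jun siRNA TNFα arrays, against 9.85, 9.91 and 9.83 in c-Jun siRNA vehicle arrays. With control siRNA it measured 9.25, 9.15 and 9.0001 in TNFα arrays, against 10.12, 10.04 and 10.18 in vehicle arrays. Every TNFα array was lower than every vehicle array. RXRA fell by 0.84 ± 0.052 with c-Jun siRNA, to 56.0% of the vehicle level (adjusted p in limma 3.43e-10). It fell by 0.98 ± 0.052 with control siRNA, to 50.7% (adjusted p in limma 2.71e-11). The siRNA made a smaller difference. RXRA fell by 0.25 ± 0.052 with c-Jun siRNA under vehicle (adjusted p in limma 0.000909). Under TNFα the 2 siRNA groups overlapped, and the difference of -0.11 ± 0.052 did not pass (interval -0.22 to 0.0012, adjusted p in limma 0.143). Without the third control siRNA TNFα array that difference was -0.17 and passed (adjusted p in limma 0.0114).

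RARA (8007084) was lowest where TNFα and c-Jun siRNA came together. Its arrays read 7.26, 7.17 and 7.27 for c-Jun siRNA with TNFα, against 8.22, 8.16 and 8.13 for c-Jun siRNA with vehicle. They read 7.78, 7.82 and 7.75 for control siRNA with TNFα, against 8.44, 8.40 and 8.35 for control siRNA with vehicle. No group overlapped another, and the order from low to high was c-Jun siRNA with TNFα, control siRNA with TNFα, c-Jun siRNA with vehicle and control siRNA with vehicle. TNFα left 52.3% of RARA with c-Jun siRNA, a fall by 0.93 ± 0.050 (adjusted p in limma 4.47e-11). It left 65.4% with control siRNA, a fall by 0.61 ± 0.050 (adjusted p in limma 1.25e-08). c-Jun siRNA lowered RARA by 0.55 ± 0.050 under TNFα (adjusted p in limma 1.11e-07) and by 0.23 ± 0.050 under vehicle (adjusted p in limma 0.0017).

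RARG (7963631), the retinoic acid receptor prominent in skin and other epithelia, fell with TNFα and with c-Jun siRNA. It measured 7.49, 7.52 and 7.58 in c-Jun siRNA TNFα arrays, against 7.98, 7.88 and 7.87 in c-Jun siRNA vehicle arrays. In control siRNA arrays it measured 7.99, 7.97 and 8.04 with TNFα, against 8.40, 8.44 and 8.57 with vehicle. The c-Jun siRNA TNFα arrays lay below all others, the control siRNA vehicle arrays lay above all others, and the remaining 2 groups overlapped. TNFα left 76.8% of RARG with c-Jun siRNA (difference -0.38 ± 0.055, adjusted p in limma 2.35e-05) and 72.1% with control siRNA (-0.47 ± 0.055, adjusted p in limma 1.41e-06). c-Jun siRNA left 72.1% under TNFα (-0.47 ± 0.055, adjusted p in limma 2.32e-06) and 67.6% under vehicle (-0.56 ± 0.055, adjusted p in limma 2.38e-07).

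RARB (8078286), itself a well-known retinoic acid target, lay below the array medians with group means of 4.32 to 4.50. The c-Jun siRNA TNFα arrays read 4.44, 4.38 and 4.13, against 4.46, 4.58 and 4.44 for c-Jun siRNA with vehicle. The control siRNA arrays read 4.47, 4.46 and 4.45 with TNFα, against 4.52, 4.39 and 4.45 with vehicle. All groups neighbouring in level overlapped, and none of the 4 comparisons passed. The lowest of their adjusted p-values in limma was 0.11, for a difference of -0.18 ± 0.080 with TNFα under c-Jun siRNA. That difference was -0.24 and passed (adjusted p in limma 0.0439) without the first c-Jun siRNA TNFα array.

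Of the genes that handle retinoids, STRA6 encodes the membrane receptor through which cells take up retinol from its carrier in blood. STRA6 (7990309) measured 7.96, 7.88 and 7.93 in c-Jun siRNA TNFα arrays, against 8.34, 8.34 and 8.26 in c-Jun siRNA vehicle arrays. In control siRNA arrays it measured 8.38, 8.27 and 8.28 with TNFα, against 8.64, 8.55 and 8.46 with vehicle. It was lowest with both agents together and highest with neither, and the 2 groups with 1 agent overlapped. STRA6 fell with TNFα by 0.39 ± 0.053 under c-Jun siRNA (adjusted p in limma 1.08e-05) and by 0.24 ± 0.053 under control siRNA (adjusted p in limma 0.00128). It fell with c-Jun siRNA by 0.39 ± 0.053 under TNFα (adjusted p in limma 1.49e-05) and by 0.24 ± 0.053 under vehicle (adjusted p in limma 0.00196).

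CRABP2, which carries retinoic acid from the cytoplasm to its nuclear receptors, had the same order of groups as STRA6. CRABP2 (7921099) measured 7.29, 7.34 and 7.36 in c-Jun siRNA TNFα arrays and 7.75 in each of the 3 c-Jun siRNA vehicle arrays. In control siRNA arrays it measured 7.69, 7.83 and 7.72 with TNFα, against 7.98, 8.04 and 8.06 with vehicle. The identical values in 1 group are a property of the deposited table, in which 75 of the 33297 probe sets were equal over the 3 c-Jun siRNA vehicle arrays. CRABP2 fell with TNFα by 0.42 ± 0.052 under c-Jun siRNA (adjusted p in limma 3.67e-06) and by 0.28 ± 0.052 under control siRNA (adjusted p in limma 0.000264). With c-Jun siRNA it fell by 0.42 ± 0.052 under TNFα (adjusted p in limma 4.90e-06) and by 0.28 ± 0.052 under vehicle (adjusted p in limma 0.000378).

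DHRS3, the reductase that turns retinal back into retinol and so holds down retinoic acid synthesis, went the opposite way and had the widest range of the set. DHRS3 (7912537) measured 9.83, 9.95 and 9.99 in c-Jun siRNA TNFα arrays, against 8.90, 8.93 and 8.89 in c-Jun siRNA vehicle arrays. In control siRNA arrays it measured 7.01, 7.0014 and 7.05 with TNFα, against 6.57, 6.49 and 6.64 with vehicle. The 4 groups stood apart, with both c-Jun siRNA groups above both control siRNA groups. Under vehicle DHRS3 was 2.34 ± 0.053 log2 units higher with c-Jun siRNA, 5.07-fold, which is again a description only. Under TNFα it rose by 2.90 ± 0.053 with c-Jun siRNA, 7.49-fold (adjusted p in limma 6.47e-17). TNFα raised it 2.03-fold with c-Jun siRNA (1.02 ± 0.053, adjusted p in limma 2.59e-11) and 1.37-fold with control siRNA (0.46 ± 0.053, adjusted p in limma 1.24e-06). These tests rest on the vehicle arrays by which DHRS3 was picked.

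CYP24A1, the enzyme that inactivates vitamin D and the best known target of VDR, differed between treatments rather than between siRNAs. CYP24A1 (8067140) measured 4.88, 4.82 and 4.41 in c-Jun siRNA TNFα arrays, against 4.06, 3.73 and 3.79 in c-Jun siRNA vehicle arrays. In control siRNA arrays it measured 4.50, 4.43 and 4.71 with TNFα, against 4.12, 3.82 and 4.02 with vehicle. All 12 values lay below the array medians, the TNFα and vehicle arrays did not overlap, and the siRNA groups overlapped within each treatment. The deposited values carry no detection calls, so whether the probe set was above background in vehicle arrays is not known and no fold is given. It rose with TNFα by 0.84 ± 0.12 log2 units under c-Jun siRNA (adjusted p in limma 1.70e-05) and by 0.56 ± 0.12 under control siRNA (adjusted p in limma 0.000929). The differences with c-Jun siRNA were 0.16 under TNFα and -0.13 under vehicle, and neither passed (adjusted p in limma 0.391 and 0.509).

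CYP26B1 (8052947), one of the enzymes that clear retinoic acid, averaged 4.75 ± 0.12 in c-Jun siRNA TNFα arrays and 4.64 ± 0.12 in c-Jun siRNA vehicle arrays. With control siRNA it averaged 4.71 ± 0.13 in TNFα arrays and 4.82 ± 0.10 in vehicle arrays. Its groups overlapped, no comparison passed, and the lowest adjusted p in limma was 0.185, for a difference of -0.17 with c-Jun siRNA under vehicle.

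Whether the TNFα effect differed between the siRNAs was tested as an interaction, the TNFα effect with c-Jun siRNA minus that with control siRNA. Of the 8 genes tested, all but VDR and DHRS3, only RARA passed, where 5.47% of all genes passed, 1.88% higher and 3.59% lower. The median interaction of the 10 was 0.020, against 0.0066 over all genes, and the median absolute value 0.17, against 0.081. These medians of the 10 include VDR and DHRS3, which were not tested here, and are a description only. The rise of DHRS3 with TNFα was larger with c-Jun siRNA by 0.56 ± 0.075. That value equals its c-Jun siRNA difference under TNFα minus the one under vehicle by which it was known beforehand, so it is a description. For VDR the interaction was -0.05 ± 0.093, likewise a description. The fall of RARA with TNFα was larger with c-Jun siRNA, by an interaction of -0.32 ± 0.071 (interval -0.47 to -0.17, adjusted p in limma 0.0097). RXRA had an interaction of 0.15 ± 0.073 (adjusted p in limma 0.342), CRABP2 of -0.14 ± 0.073 (0.368) and STRA6 of -0.15 ± 0.074 (0.33). For CYP24A1 it was 0.28 ± 0.17, and none of these passed (adjusted p in limma 0.437).

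**Figure D3:**
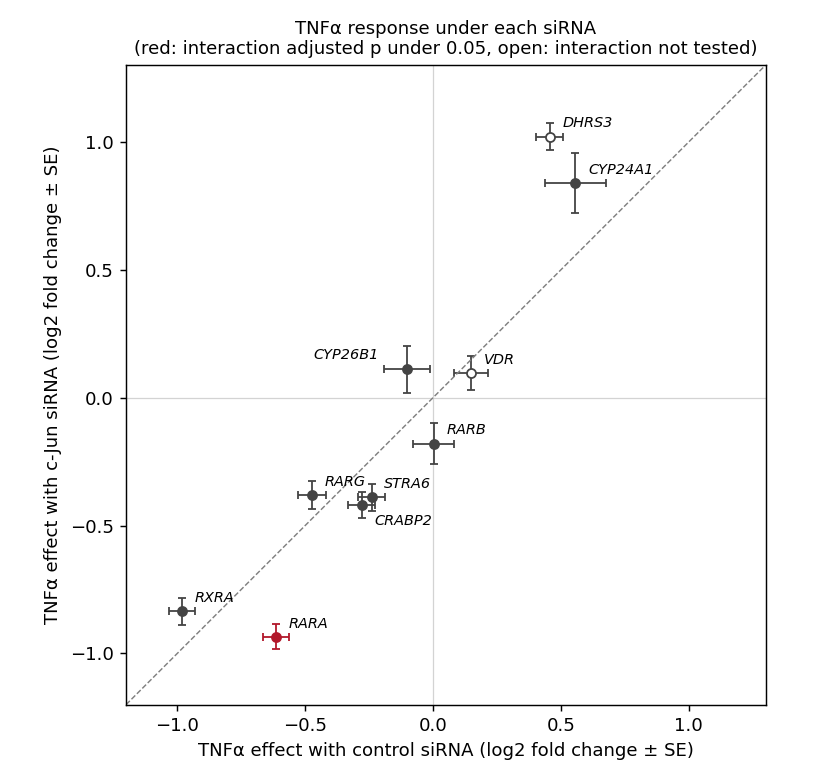
TNFα effect on each of the 10 genes in log2 units, vertically with c-Jun siRNA and horizontally with control siRNA, with bars of 1 SE each way and a dashed line where both effects are equal. RARA lies below the line, in red because its interaction passed at an adjusted p under 0.05, and DHRS3 lies above it, an open point like VDR because their interactions were not tested.

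The array names carry a position code that reads as a plate column, which is an inference, and no column held both c-Jun siRNA groups. Within column 7, which held 2 control siRNA arrays of each treatment and 1 c-Jun siRNA TNFα array, TNFα with control siRNA moved RXRA by -1.01, RARA by -0.63, RARG by -0.42, DHRS3 by 0.50 and CYP24A1 by 0.60. In columns 7 and 9 the c-Jun siRNA difference under TNFα was 2.58 and 2.53 for VDR, 2.93 and 2.90 for DHRS3 and -0.62 and -0.51 for RARA. Column 5 held 3 c-Jun siRNA arrays and 1 control siRNA array with vehicle, where the differences were 2.45 for VDR, 2.27 for DHRS3 and -0.67 for RARG. With the column as a block, 3 calls ended: RARG for TNFα with c-Jun siRNA (-0.23, adjusted p in limma 0.18), and RARA (-0.18, adjusted p in limma 0.0947) and STRA6 (-0.15, adjusted p in limma 0.153) for c-Jun siRNA with vehicle.

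Around these genes the wider pathways were read from lists. The interaction, passed by 5.47% of all genes, passed for 1 of 8 vitamin D metabolism genes, 1 of 21 vitamin D targets, 1 of 28 retinoid metabolism genes, 3 of 18 retinoic acid targets tested, 3 of 11 RXR partners and none of 10 coregulators. The retinoid metabolism gene was RDH10 (-0.18, adjusted p in limma 0.0358), whose call ended in 13 of 25 alternative settings. Of 8 measured genes of vitamin D metabolism and transport, 1 rose and 1 fell with TNFα under c-Jun siRNA, and 1 rose and none fell under control siRNA. With c-Jun siRNA 2 rose and none fell under either treatment. Those counts are at most 25% of the list, where 29.6% and 35.7% of all genes changed with TNFα under c-Jun siRNA and control siRNA and 28.5% and 28.9% changed with c-Jun siRNA under TNFα and vehicle. The medians of the list lay between -0.042 and 0.047, near those of all genes. The gene that rose with TNFα under both siRNAs was CYP27B1, the enzyme that makes active vitamin D. CYP27B1 (7964535) measured 8.04, 8.14 and 8.19 in c-Jun siRNA TNFα arrays, against 6.10, 6.23 and 6.03 in c-Jun siRNA vehicle arrays. In control siRNA arrays it measured 7.18, 7.09 and 7.17 with TNFα, against 5.50, 5.49 and 5.84 with vehicle. The 4 groups did not overlap. CYP27B1 rose with TNFα by 2.01 ± 0.088 under c-Jun siRNA (adjusted p in limma 2.60e-12) and by 1.54 ± 0.088 under control siRNA (adjusted p in limma 8.28e-11). It rose with c-Jun siRNA by 0.98 under TNFα (adjusted p in limma 9.06e-08) and by 0.51 under vehicle (adjusted p in limma 0.000184), and the vehicle call ended with the position column as a block (0.28, adjusted p in limma 0.0739). Its interaction of 0.47 ± 0.12 passed narrowly (adjusted p in limma 0.033), and the call ended in 13 of 25 alternative settings. Among these were the fits without the third control siRNA vehicle array (0.35, adjusted p in limma 0.0688) and without several other single arrays. PDIA3, which encodes a protein disulphide isomerase that also binds vitamin D at membranes, was the other gene that rose with c-Jun siRNA, by 0.26 under TNFα and 0.27 under vehicle.

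Of 21 vitamin D target genes, 5 rose and 1 fell with TNFα under c-Jun siRNA, and 5 rose and 2 fell under control siRNA, with medians of 0.062 and 0.0012. These are 28.6% and 33.3% of the list, near the 29.6% and 35.7% of all genes. With c-Jun siRNA, where VDR stood more than 5-fold higher, 2 rose and 3 fell under TNFα, and 2 rose and 1 fell under vehicle. These are 23.8% and 14.3% of the list, against 28.5% and 28.9% of all genes, with medians of 0.026 and -0.053. NINJ1, a membrane protein gene of cell adhesion and lytic cell death, rose with TNFα by 1.29 ± 0.042 under c-Jun siRNA and by 2.02 ± 0.042 under control siRNA, with an interaction of -0.73 (adjusted p in limma 2.00e-07). CDKN1A, which encodes the cell cycle inhibitor p21, rose with TNFα by 1.15 and 1.24 under c-Jun siRNA and control siRNA. It fell with c-Jun siRNA by 0.93 under TNFα and by 0.84 under vehicle. SLC37A2, a sugar phosphate transporter gene, rose with c-Jun siRNA by 0.48 and 0.50 under TNFα and vehicle, the second of which became 0.26 and did not pass with a floor at 5 (adjusted p in limma 0.131). LRP5, a Wnt co-receptor gene, fell with TNFα by 0.46 under c-Jun siRNA and by 0.68 under control siRNA.

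For retinoid uptake and metabolism, 28 of 32 listed genes were measured. With TNFα 2 rose and 4 fell under c-Jun siRNA, and 2 rose and 3 fell under control siRNA. With c-Jun siRNA 3 rose and 1 fell under TNFα, and 2 rose and 1 fell under vehicle. These were 21.4%, 17.9%, 14.3% and 10.7% of the list, below the 29.6%, 35.7%, 28.5% and 28.9% of all genes in the same order. The medians in that order were -0.054, -0.047, 0.011 and 0.012. RDH10, the enzyme that oxidises retinol to retinal and so runs against DHRS3, rose with c-Jun siRNA by 0.43 ± 0.034 under TNFα (adjusted p in limma 1.67e-08) and by 0.61 ± 0.034 under vehicle (adjusted p in limma 1.48e-10). With TNFα it rose by 0.31 under control siRNA. ALDH1A3, which oxidises retinal to retinoic acid, fell with c-Jun siRNA by 0.54 under TNFα (adjusted p in limma 2.88e-06) and by 0.34 under vehicle (adjusted p in limma 0.000475). The second of these calls ended when a gene's probe sets were averaged (-0.12, adjusted p in limma 0.193). RBP4, the retinol carrier of blood, fell with TNFα by 0.30 under c-Jun siRNA and by 0.39 under control siRNA.

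Among 19 measured retinoic acid target genes of 24 listed, 4 rose and 6 fell with TNFα under c-Jun siRNA and 5 rose and 5 fell under control siRNA. With c-Jun siRNA 6 rose and 3 fell under TNFα, and 3 rose and 3 fell under vehicle among the 18 tested, without TGM2. Of all genes 29.6%, 35.7%, 28.5% and 28.9% changed in the same order, against 52.6%, 52.6%, 47.4% and 33.3% of the list. The medians in that order, each over all 19 genes with TGM2 included, were -0.017, -0.049, 0.039 and -0.012. Members moved both ways in every comparison. TGM2, the tissue transglutaminase gene, averaged 11.13 ± 0.053 in c-Jun siRNA TNFα arrays and 9.25 ± 0.067 in control siRNA TNFα arrays, a rise of 1.89 (adjusted p in limma 9.81e-15). Under vehicle, where it too was known beforehand to stand out, it averaged 11.08 ± 0.024 with c-Jun siRNA and 8.85 ± 0.12 with control siRNA. RARRES1, named for its response to retinoids, rose with TNFα by 1.65 under c-Jun siRNA and 1.73 under control siRNA, and its interaction of -0.08 ± 0.17 did not pass (adjusted p in limma 0.875). CD38, an NAD-consuming surface enzyme, rose with TNFα by 2.15 under c-Jun siRNA and 1.65 under control siRNA. PLAT, the tissue plasminogen activator gene, rose with TNFα by 0.71 ± 0.097 under c-Jun siRNA and by 2.00 ± 0.097 under control siRNA. Its interaction was -1.28 ± 0.14 (adjusted p in limma 7.32e-06). PLAT fell with c-Jun siRNA by 1.89 under TNFα (adjusted p in limma 5.79e-11) and by 0.61 under vehicle. MEIS2, a homeobox gene, fell with TNFα by 0.46 under c-Jun siRNA, and with c-Jun siRNA it fell by 0.95 under TNFα (adjusted p in limma 2.70e-08).

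The other receptors that pair with RXR gave 11 measured genes of 14 listed, the RXR paralogs RXRB and RXRG included. Under c-Jun siRNA 2 rose and 4 fell with TNFα, and under control siRNA 2 rose and 3 fell. With c-Jun siRNA 1 rose and 4 fell under TNFα and 2 rose and 4 fell under vehicle. These are 54.5%, 45.5%, 45.5% and 54.5% of the 11, where 29.6%, 35.7%, 28.5% and 28.9% of all genes changed. The medians in that order were -0.031, -0.16, -0.11 and -0.062. RXRB fell with TNFα under control siRNA by 0.16 ± 0.048 (adjusted p in limma 0.0153), where RXRA fell by 0.98, and RXRG, with group means of 3.71 to 3.78, passed no test. THRA, a thyroid hormone receptor gene, changed with TNFα by -1.06 ± 0.054 under c-Jun siRNA and by -1.10 ± 0.054 under control siRNA (adjusted p in limma 2.17e-11 and 9.77e-12). PPARG, the adipogenic fatty acid receptor, fell with TNFα by 0.67 under c-Jun siRNA (adjusted p in limma 8.60e-07), whereas its difference under control siRNA was -0.16 (adjusted p in limma 0.114). The interaction of -0.51 ± 0.10 passed (adjusted p in limma 0.005). NR4A2, an orphan receptor gene, rose with TNFα by 0.38 under c-Jun siRNA and by 0.71 under control siRNA, with an interaction of -0.33 (adjusted p in limma 0.00148). Of 10 measured coregulator genes of 13, none rose and 5 fell with TNFα under c-Jun siRNA and 1 rose and 5 fell under control siRNA. With c-Jun siRNA 1 rose and 5 fell under TNFα and 2 rose and 3 fell under vehicle, and the medians in that order were -0.13, -0.066, -0.11 and -0.045. Of all genes 18.3% and 21.9% fell with TNFα under c-Jun siRNA and control siRNA, and 14.4% and 14.5% fell with c-Jun siRNA under TNFα and vehicle. NCOA2, a coactivator gene, fell with TNFα by 0.29 and 0.45 under c-Jun siRNA and control siRNA, and TBL1X, a corepressor subunit gene, by 0.33 and 0.24. With the position column as a block the first TBL1X value was -0.21 and did not pass (adjusted p in limma 0.0848).

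**Figure D4:**
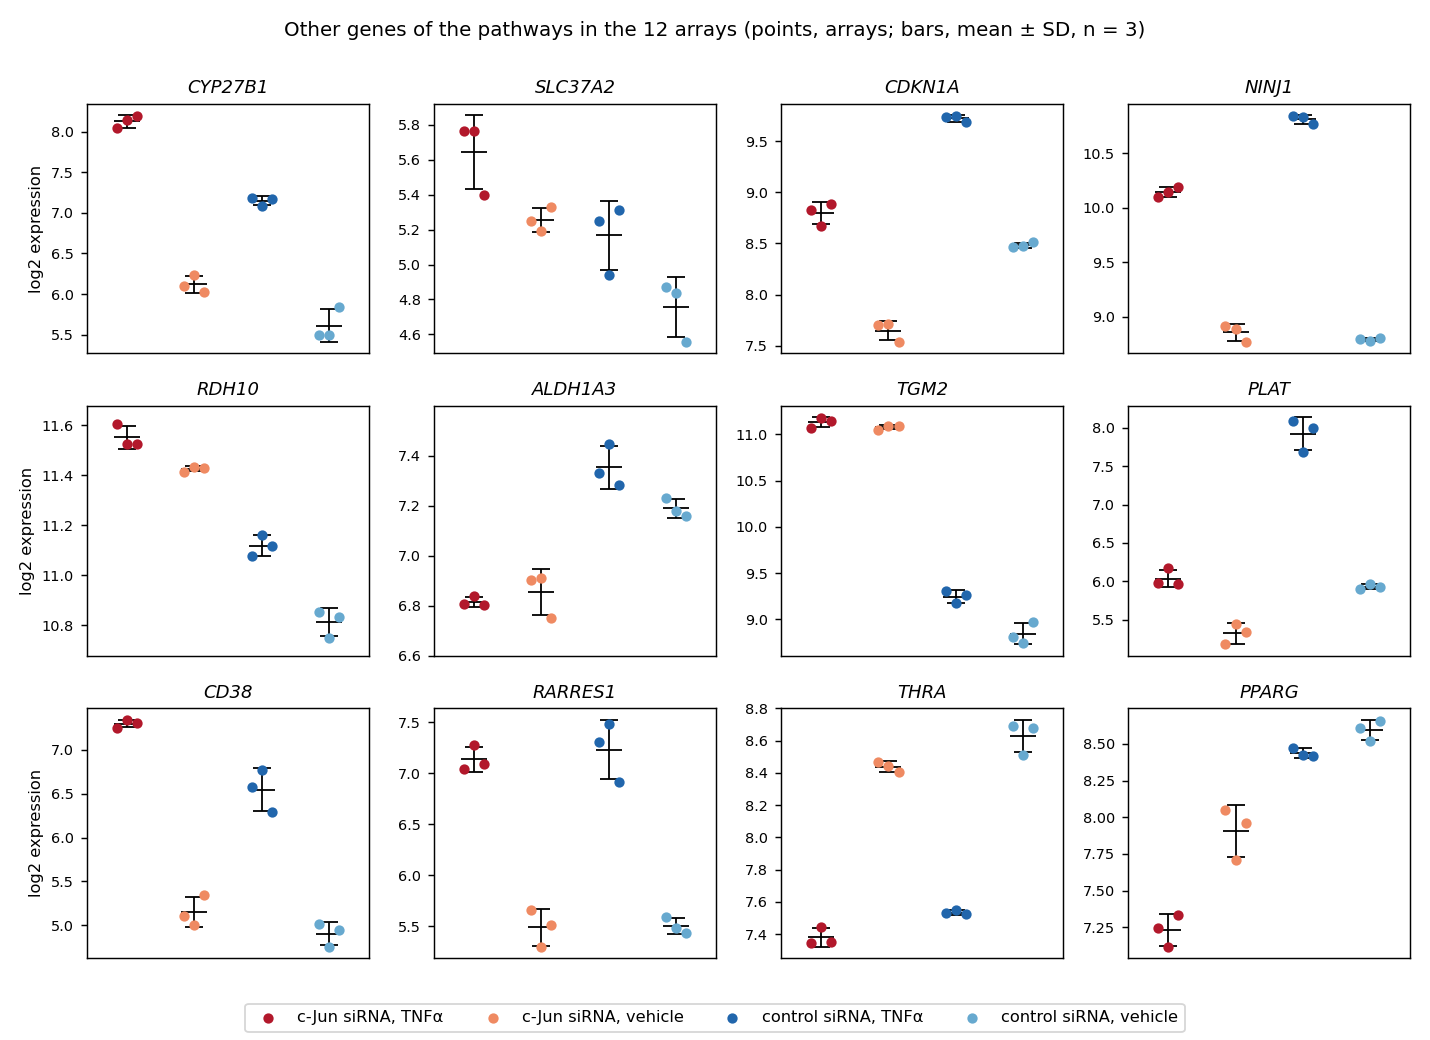
Log2 expression of 12 further vitamin D, retinoid and RXR partner genes, 1 panel a gene with its own vertical axis, points for the 12 arrays by group and bars for group means with SDs over 3 arrays. CYP27B1 reaches 8.12 with c-Jun siRNA and TNFα, TGM2 separates by siRNA, and THRA and RARRES1 separate by treatment.

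The genes whose 12 values ran most like those of each widely varying member were taken from the 948 genes whose group means spanned at least 1 log2 unit. The measure was Pearson's r over the 12 arrays, which fall into 4 groups, so it mostly restates likeness of the group means and carries no p. Nearest to VDR were ADGRG6, RGS5 and AJUBA (r = 0.998 each), OGFRL1 (0.996) and CLDN12 (0.995). Nearest to DHRS3 were IL22RA2 (0.991), DCP2 and CYP4V2 (0.988 each), CLIP4 (0.987) and TUFT1 (0.985). The genes closest to RXRA were RAB3A (0.994), ENO2 and EPHB4 (0.991 each), ZNF395 and its partner receptor THRA (0.989 each). RARA ran with CDH11 (0.995), CACNG4 and TIMP3 (0.993 each), PCDH18 and SSBP2 (0.991 each).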

How the data were processed

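Affymetrix gene arrays measured RNA of BT549 cells, 3 arrays in each of 4 groups, assigned from the sample labels. The authors deposited 1 value per probe set, used here as log2 expression. The base was inferred from the range of 2.27 to 14.0, and the common scale from array quartiles, which differed by at most 0.061. Affymetrix Expression Console 1.1 and PLIER are named in the submitters' processing notes. Their settings are not given in the sources used here.

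Of 33297 probe sets, 19181 had 1 gene symbol. The probe set with the highest mean stood for a gene, giving 17958 genes with no filter. limma 3.58.1 in R 4.3.3 fitted 1 mean per group to all 12 arrays (8 residual degrees of freedom) with a mean-variance trend and two-sided tests. The script was tested on simulated data. Tables and plots used Python 3.11.15, pandas 2.3.3, numpy 2.4.6 and matplotlib 3.10.9.

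The 10 genes and the lists were chosen with earlier results of these data known. From each list the rule allows up to 3 passing genes per comparison with the largest absolute difference. The text names only some of these genes, and not every comparison that they passed. RXRB and RXRG were named after their values were seen. Likeness was listed for genes whose group means span 1 log2 unit. Alternatives covered normalisation, floors, filters, variance models, probe set averaging, array weights, position and replicate blocks, and arrays left out in turn. The name of the c-Jun siRNA TNFα array labelled replicate 3 could mean a rerun of replicate 1, and it was used as labelled. Its difference from replicate 1 had an SD over genes of 0.121, the smallest of the 3 pairs of its group (0.133 and 0.142 in the others) and within the 0.119 to 0.142 of all pairs within groups. This cannot decide whether it was a rerun, in which case the group holds fewer separate arrays. Averaging it with replicate 1 was among the alternatives, and no tested call of the 10 genes ended or was gained there.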

Additional observations from a re-analysis of the deposited data

Results flagged for a closer look

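The TNFα effect on RARA differed between c-Jun siRNA and control siRNA by -0.32 log2 units, a difference that passed the interaction test in limma. Over 25 alternative settings the value stayed between -0.38 and -0.29, with adjusted p-values from 0.00705 to 0.036.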

How the results depend on the processing

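The number of the 10 genes that changed ran from 6 to 8 for TNFα with either siRNA, from 6 to 7 for c-Jun siRNA with TNFα, from 3 to 5 of the 8 tested for c-Jun siRNA with vehicle, with the 3 from the position column as a block, and stayed at 1 of 8 for the interaction. Leaving out each array in turn gave 7 to 8, 7 to 8, 6 to 7, 5 to 5 and 1 to 1 in that order. Of 1168 values of the 10 genes recomputed with a test, VDR and DHRS3 not counted where untested, 1160 kept direction and side of the threshold, 3 calls ended and 5 were gained, and none reversed. The gained calls not given above were VDR for TNFα with control siRNA (0.22, adjusted p in limma 0.0142) and RXRA for c-Jun siRNA with TNFα (-0.14, adjusted p in limma 0.0473), both with the position column as a block. Of 5899 values of the genes from lists and markers, 262 calls ended, 37 were gained and 1 reversed, PPARA for TNFα with c-Jun siRNA at 0.13 with the column as a block. Over all genes the column block left 2376 calls against 5320 for TNFα with c-Jun siRNA, 3448 against 5183 for c-Jun siRNA with vehicle and 531 against 983 for the interaction, and a threshold of 0.01 left 553 for the interaction. The column block takes degrees of freedom and confounds column with c-Jun siRNA groups in part. Same-numbered replicates did not deviate together (18 pairs, r from -0.059 to 0.088), and the main fit did not pair them. These correlations cannot show whether arrays of the same number shared a culture. The fit with a replicate block gave 7, 7, 6, 5 and 1 changed genes. A floor at 5, and a filter that left out the dimmest 30% of genes, left CYP24A1, RARB and CYP26B1 without a value. The tally of recomputed values leaves these genes out under both settings. The TNFα calls of CYP24A1 lost there are thus not among the 3 that ended. Values near the low end of the arrays limit what can be said of these 3 genes.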

Other observations

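Probe sets with the same value in all 3 arrays of a group, as CRABP2 had in the c-Jun siRNA vehicle arrays, numbered 61 in the c-Jun siRNA TNFα arrays, 75 in the c-Jun siRNA vehicle arrays, 87 in the control siRNA TNFα arrays and 60 in the control siRNA vehicle arrays, of 33297 probe sets.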
